A study of Arabidopsis thaliana with 12 samples.

Results

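Untreated Arabidopsis seedlings that carried an acidic form of the chitin receptor kinase CERK1 were compared with seedlings that carried an alanine form of it. The comparison was chosen by label and used 4 of the 12 libraries of the series: 2 of the CERK1_3D line against 2 of the CERK1_3A line. CERK1_3D plants were cerk1 mutants with pCERK1::CERK1_3D-FLAG, CERK1_3A plants were cerk1 mutants with pCERK1::CERK1_3A-FLAG, and both were sampled without treatment as seedlings 10 days after germination. Both lines thus shared the cerk1 background, the CERK1 promoter and the FLAG tag, and they differed by label in the substitutions of the receptor. A pair of further lines made in the same way served as context and for the estimate of the spread: CERK1_3E, with another acidic form, and CERK1_WT, with the unmutated receptor, at 2 libraries each. The labels name neither the substituted residues nor the number of independent transformants, so the construct and the line that carries it cannot be told apart. Nothing in the labels places the libraries of a line in separate cultures. The p-values therefore refer to the spread among these libraries alone, and that spread may be technical.

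CERK1 is a receptor kinase with extracellular LysM domains that bind chitin, a polymer of fungal cell walls, and it signals through cytoplasmic kinases, MAP kinases and defence gene expression. The bacterial flagellin peptide flg22 is perceived by another receptor kinase, FLS2. The series title concerns phosphorylation of CERK1 after flg22. Aspartate and glutamate carry a negative charge and are widely used to mimic a phosphorylated residue, whereas alanine cannot be phosphorylated. The comparison of the acidic with the alanine form therefore asked how the transcriptome of untreated seedlings differed between them.

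The 2 CERK1_3D libraries held 36013439 and 37793059 counts, and the 2 CERK1_3A libraries held 37503446 and 36399561. Levels are given as CPM, the count scaled to library size with TMM factors, and are compared only between libraries, not between genes. The seedlings contained the tissues that the label implies: all 21 nuclear photosynthesis genes and 12 to 14 of 15 root markers exceeded 1 CPM in each of the 4 libraries, and none of 10 seed maturation markers did. Replicates of CERK1_3D differed at least 2-fold for 787 genes, against 375 genes in CERK1_3A, among genes with a mean of at least 1 CPM. Summed root markers were 201 and 136 CPM in the CERK1_3D libraries, and 152 and 158 CPM in the CERK1_3A libraries.

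The CERK1 transcript itself was measured at 115 and 121 CPM in CERK1_3D and at 80.2 and 73.3 CPM in CERK1_3A. Transgene and endogenous reads were not separated. Both CERK1_3D libraries lay above both CERK1_3A libraries. The log2 fold change was 0.62 (SE 0.11), which did not pass edgeR's quasi-likelihood test after Benjamini-Hochberg adjustment over all genes (adjusted p = 0.321). DESeq2's Wald test on the same libraries did call it (log2 fold change 0.62, adjusted p = 0.00103). CERK1 stood at 114 and 129 CPM in CERK1_3E and at 61.1 and 52.5 CPM in CERK1_WT, so the order of the lines by mean was CERK1_3E, CERK1_3D, CERK1_3A and CERK1_WT. The neighbours at the top of this order, CERK1_3E and CERK1_3D, overlapped.

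Few genes were called between the lines. Of 21274 genes tested, edgeR called 5 (0.0235% of those tested) at an adjusted p under 0.05. Relative to CERK1_3A, 4 rose in CERK1_3D (0.0188%): TWD1, ARP9, AT2G01021 and AT1G58936. Another 1 fell (0.0047%). At an unadjusted p under 0.05 the test counted 1230 genes (5.78%), 656 higher (3.08%) and 574 lower (2.7%) in CERK1_3D. DESeq2 called 77 genes (0.362%), 50 higher (0.235%) and 27 lower (0.127%), and the 5 genes were among them. The median log2 fold change over all tested genes was -0.00115, and 49.7% of them had a positive value. In bulk RNA from whole seedlings, fewer cells of a type and less RNA per cell cannot be told apart.

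**Figure D1:**
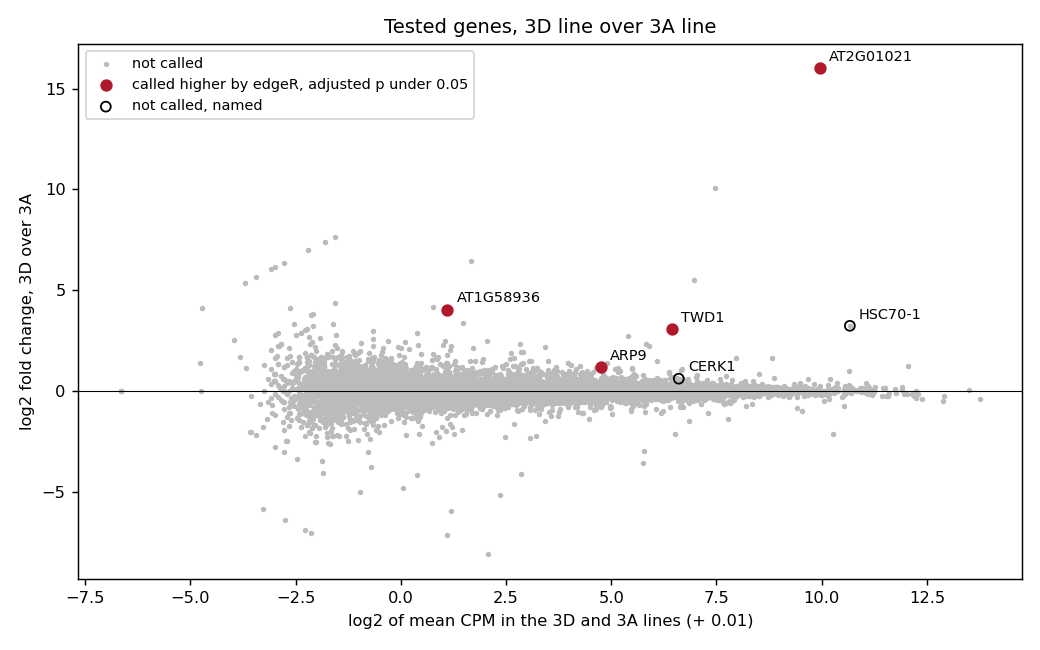
Log2 fold change of CERK1_3D over CERK1_3A (y axis) against the log2 of the mean CPM of the 4 libraries (x axis) for the genes tested, without the 1 called lower; each point is a gene, filled red points are the 4 genes called higher by edgeR and open circles are HSC70-1 and CERK1, which were not called. The called genes span low to high levels, with log2 fold changes between 1.17 and 16.01.

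TWD1 (AT3G21640) encodes an immunophilin-like protein that acts with ABCB transporters in auxin transport, and it lies next to CERK1 on the same strand. It was measured at 182 and 132 CPM in CERK1_3D, against 18.9 and 17.9 CPM in CERK1_3A. Both CERK1_3D libraries lay above both CERK1_3A libraries without overlap. Summed over both libraries the counts were 11562 in CERK1_3D and 1361 in CERK1_3A, 8.55-fold higher in CERK1_3D (95% exact binomial interval 8.08 to 9.05, counting error only, as for the count ratios of other genes), and the log2 fold change was 3.09 (SE 0.19, edgeR adjusted p = 0.00316, higher in 2 of 2 libraries). CERK1_3E was also high, at 264 and 204 CPM, and CERK1_WT was low, at 24.2 and 20.2 CPM. The same edgeR test called CERK1_3A below CERK1_3E (log2 fold change -3.67, adjusted p = 0.00204) and CERK1_3D above CERK1_WT (2.82, adjusted p = 0.00577), and it called neither CERK1_3D against CERK1_3E (-0.58, adjusted p = 0.999) nor CERK1_3A against CERK1_WT (-0.27, SE 0.18). These comparisons share libraries with the first, and their background of edgeR calls was 0.0141% of genes for CERK1_3D over CERK1_3E, 0.0282% for CERK1_3D over CERK1_WT, 0.0094% for CERK1_3A over CERK1_3E and 0.0047% for CERK1_3A over CERK1_WT. The TWD1 call between CERK1_3D and CERK1_3A was lost when CERK1_3A replicate 1 was left out, at a log2 fold change of 3.13 and an adjusted p of 0.0595.

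Around CERK1, TWD1 was the 1 gene called among 10 tested of 11 annotated neighbours, CERK1 included. AT3G21650, the next gene beyond TWD1, was measured at 10.6 and 12.8 CPM in CERK1_3D and at 10.9 and 11.4 CPM in CERK1_3A (log2 fold change 0.07, SE 0.15). AT3G21620, on the other side of CERK1, had 4.88 and 4.1 CPM in CERK1_3D and 5.18 and 4.17 CPM in CERK1_3A (log2 fold change -0.06, SE 0.19). These neighbours overlapped between the lines. The other tested genes had log2 fold changes of -0.01 to 0.25, and the highest of them, AT3G21670, had an unadjusted p of 0.0454 and an edgeR adjusted p of 0.857. AT3G21590 had too few counts to be tested. The length stated for TWD1 in the count table was 4435 bases against an annotated span of 2627, and that for CERK1 was 5982 against 3315. Whether reads of the transgene were counted there was not tested.

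**Figure D2:**
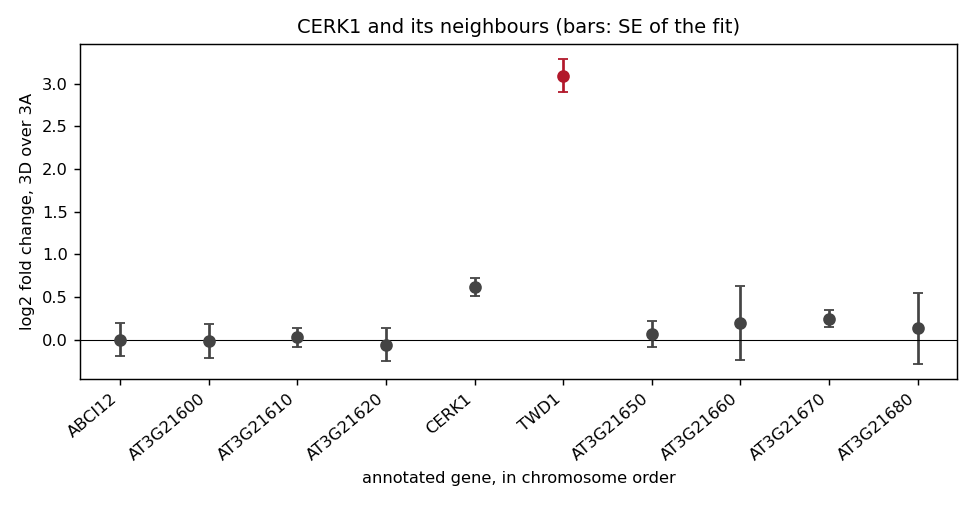
Log2 fold change of CERK1_3D over CERK1_3A (y axis) for the 10 tested genes of the CERK1 neighbourhood in chromosome order (x axis); points are the fitted values, bars the SE of the fit, and red marks the called gene. TWD1 stands at 3.09, CERK1 at 0.62 and the other 8 genes between -0.06 and 0.25.

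ARP9 (AT5G43500), an actin-related protein gene, was measured at 35.8 and 39.0 CPM in CERK1_3D, against 17.3 and 15.9 CPM in CERK1_3A. The CERK1_3A libraries were the low ones: CERK1_3E stood at 34 and 34.8 CPM and CERK1_WT at 36.8 and 39.0 CPM. The log2 fold change of CERK1_3D over CERK1_3A was 1.17 (SE 0.09, edgeR adjusted p = 0.0114, higher in 2 of 2 libraries), and that of CERK1_3D over CERK1_WT was -0.02. Of the 4 libraries compared, leaving out either CERK1_3A library ended the call, and so did leaving out either CERK1_WT library. With only the 4 libraries in the fit the log2 fold change was 1.18 and the adjusted p 0.108. The stated length of ARP9 was 15889 bases, against an annotated span of 4130.

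HSC70-1 (AT5G02500), a cytosolic heat shock cognate chaperone, showed a similar order of the lines with a larger difference. It was measured at 3010 and 2878 CPM in CERK1_3D, against 311 and 313 CPM in CERK1_3A. CERK1_3E stood between, at 2057 and 823 CPM, and CERK1_WT at 3025 and 2671 CPM, so the CERK1_3A libraries lay below all the others. The counts were 9.45-fold higher in CERK1_3D (9.32 to 9.58). The log2 fold change was 3.24 (SE 0.37), and HSC70-1 was not called by edgeR over all 8 libraries (adjusted p = 0.0932). It was called with only the 4 libraries compared (adjusted p = 0.0030), without either CERK1_3E library, and by DESeq2 (adjusted p = 8.9e-10). Its neighbour Hsp70-2, whose coding sequence is 86.9% identical, had 75.0 and 82.1 CPM in CERK1_3D and 72.1 and 64.1 CPM in CERK1_3A (log2 fold change 0.21). The stated length of HSC70-1 was 8346 bases, against an annotated span of 2879.

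AT2G01021, annotated as an uncharacterized protein with a span of 102 bases, had the largest fitted difference. It was measured at 3347 and 646 CPM in CERK1_3D, while each CERK1_3A library held 1 count (0.0264 and 0.0276 CPM). CERK1_3E stood at 243 and 694 CPM and CERK1_WT at 384 and 663 CPM, so the CERK1_3A libraries were again the low ones. The counts were 148184 in CERK1_3D and 2 in CERK1_3A, a ratio of 74554 (20638 to 615620). The fitted log2 fold change of 16.01 (SE 1.48, edgeR adjusted p = 0.0293, higher in 2 of 2 libraries) depends on how so low a count is treated. The call was lost when any single library of CERK1_3A or CERK1_WT was left out, with the replicate block (adjusted p = 0.0569) and with only the 4 libraries (adjusted p = 0.0652). The gene lies beside the ribosomal RNA genes AT2G01010 and AT2G01020, which the count table does not list, and its stated length there was 25725 bases. The part of ribosomal RNA reads in its counts was not tested.

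AT1G58936, a gene of the inositol-pentakisphosphate 2-kinase family, was measured at 4.62 and 3.47 CPM in CERK1_3D, against 0.264 and 0.221 CPM in CERK1_3A. CERK1_3E stood at 0.159 and 0.164 CPM and CERK1_WT at 0.165 and 0.108 CPM, so the 2 CERK1_3D libraries were above all 6 others. The counts were 298 in CERK1_3D and 18 in CERK1_3A, 16.7-fold higher (10.4 to 28.5). The log2 fold change was 4.04 (SE 0.40, edgeR adjusted p = 0.0354, higher in 2 of 2 libraries). By the same test CERK1_3D was also called above CERK1_3E (4.62, adjusted p = 0.0319) and above CERK1_WT (4.84, adjusted p = 0.0247). The coding sequence of AT1G59312 is 100% identical to that of AT1G58936 and had 7 counts in each line, so the assignment of reads between these copies is uncertain. The call was lost without each of the 8 libraries in turn.

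**Figure D3:**
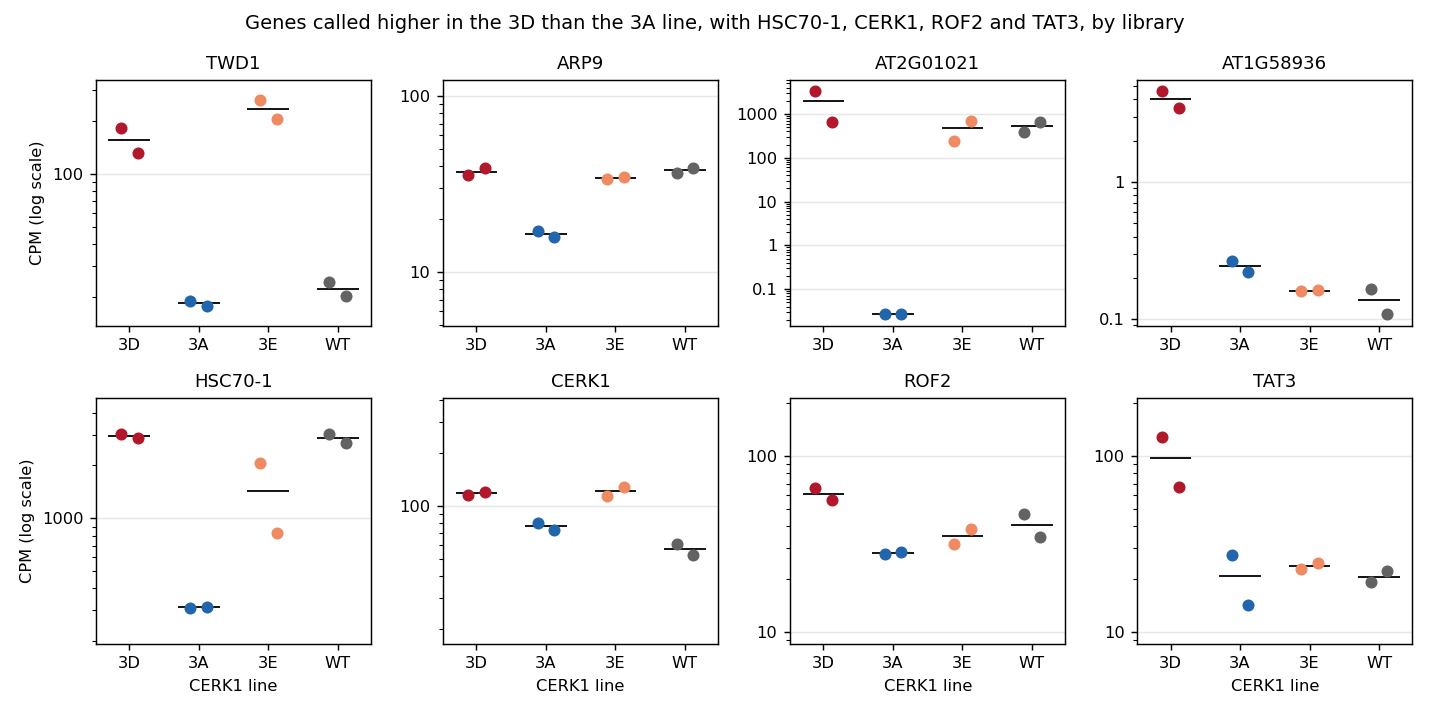
CPM on a log scale (y axis) by line, CERK1_3D, CERK1_3A, CERK1_3E and CERK1_WT from left to right, for the 4 genes called higher and for HSC70-1, CERK1, ROF2 and TAT3; each point is 1 library and each black line the mean of 2. CERK1_3D lies above the 3 other lines in AT1G58936, TAT3 and, by less, ROF2. CERK1_3A lies below the 3 others in ARP9, AT2G01021 and HSC70-1. The lines with acidic forms lie above the other 2 in TWD1 and, by less, in CERK1.

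A further 20 genes were named by the smallest unadjusted p among genes with a mean of at least 1 CPM. They were not called by edgeR, with adjusted p-values of 0.0932 for HSC70-1 and 0.256 to 0.315 for the rest, and their values are given as levels. TAT3, a tyrosine aminotransferase gene known to respond to jasmonate and wounding, had 129 and 67.1 CPM in CERK1_3D, against 27.3 and 14.3 CPM in CERK1_3A. Both CERK1_3D libraries were above all 6 others, which reached 27.3 CPM at most, and the log2 fold change was 2.24 (SE 0.36). SQP1, a squalene epoxidase gene, had 217 and 244 CPM in CERK1_3D and 150 and 156 CPM in CERK1_3A. SIP2, an enzyme gene of raffinose metabolism, had 129 and 144 CPM in CERK1_3D and 86.3 and 91.7 CPM in CERK1_3A. Their log2 fold changes were 0.59 and 0.62, and neither gene overlapped between the lines. PRB1, a basic relative of the pathogenesis-related protein PR1, had 0.912 and 1.18 CPM in CERK1_3D and 3.67 and 3.45 CPM in CERK1_3A. CERK1_3E, at 0.930 and 1.12 CPM, lay with CERK1_3D, whereas CERK1_WT, at 2.72 and 2.54 CPM, lay nearer to CERK1_3A. AMY2, an alpha-amylase gene, and TBL26, of a family of cell wall acetyltransferases, had log2 fold changes of 0.62 and 0.66. The remaining differences in this group were 0.47 to 2.86 for genes higher and -1.06 to -0.47 for genes lower in CERK1_3D.

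Heat shock and cytosolic chaperone genes were mostly higher in CERK1_3D than in CERK1_3A, although no member passed edgeR's adjusted threshold. Of 20 tested members of 21, 18 had a positive log2 fold change and 2 a negative one, with a median of 0.43 against -0.00115 over all genes. An unadjusted p under 0.05 was reached by 7 members, all higher, where 3.08% of all genes were. DESeq2 called 3 higher, HSC70-1, ROF2 and HSP90.1, where it called 0.235% of all genes higher. Among members with a mean of at least 1 CPM, both CERK1_3D libraries lay above both CERK1_3A libraries for 14 of 18 and below them for 0, against 15.2% above and 16.7% below over all genes. ROF2, an immunophilin that works with HSP90 in the heat response, had 66.0 and 56.2 CPM in CERK1_3D, against 28.0 and 28.6 CPM in CERK1_3A (log2 fold change 1.11, SE 0.16, edgeR adjusted p = 0.256). The chaperone gene HSP90.1 had 123 and 95.5 CPM in CERK1_3D, against 59.4 and 55.5 CPM in CERK1_3A. The small heat shock protein gene HSP17.6II had 3.09 and 2.28 CPM in CERK1_3D, against 1.03 and 0.663 CPM in CERK1_3A. In these 3 genes the lines did not overlap. HSFA2, a transcription factor that sustains the heat response, had a log2 fold change of 0.97, and DREB2A and HSFA7A had -0.15 and -0.18.

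The heat shock members varied between libraries of a line as well. The median deviation of the 20 genes from their own means over 8 libraries, on the log2 CPM scale, was 0.41 and 0.09 in CERK1_3D, -0.16 and -0.16 in CERK1_3A, -0.02 and -0.14 in CERK1_3E and 0.25 and -0.19 in CERK1_WT. The CERK1_WT libraries were thus further apart than CERK1_3D replicate 2 was from CERK1_3A. Without CERK1_3D replicate 1 the median log2 fold change of the list was 0.26, and without CERK1_3D replicate 2 it was 0.60. Endoplasmic reticulum folding genes, the chaperones of the secretory pathway, had a smaller median of 0.12, with 12 of 13 values positive. They had 1 unadjusted call higher, against 3.08% of all genes, and 0 members called after adjustment. Both CERK1_3D libraries lay above both CERK1_3A libraries for 2 of 13 members and below them for 0, against 15.2% and 16.7% of all genes. BIP3, the stress-induced member of the BiP family, had 7.73 and 9.22 CPM in CERK1_3D and 5.63 and 3.89 CPM in CERK1_3A (log2 fold change 0.83, SE 0.29).

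**Figure D4:**
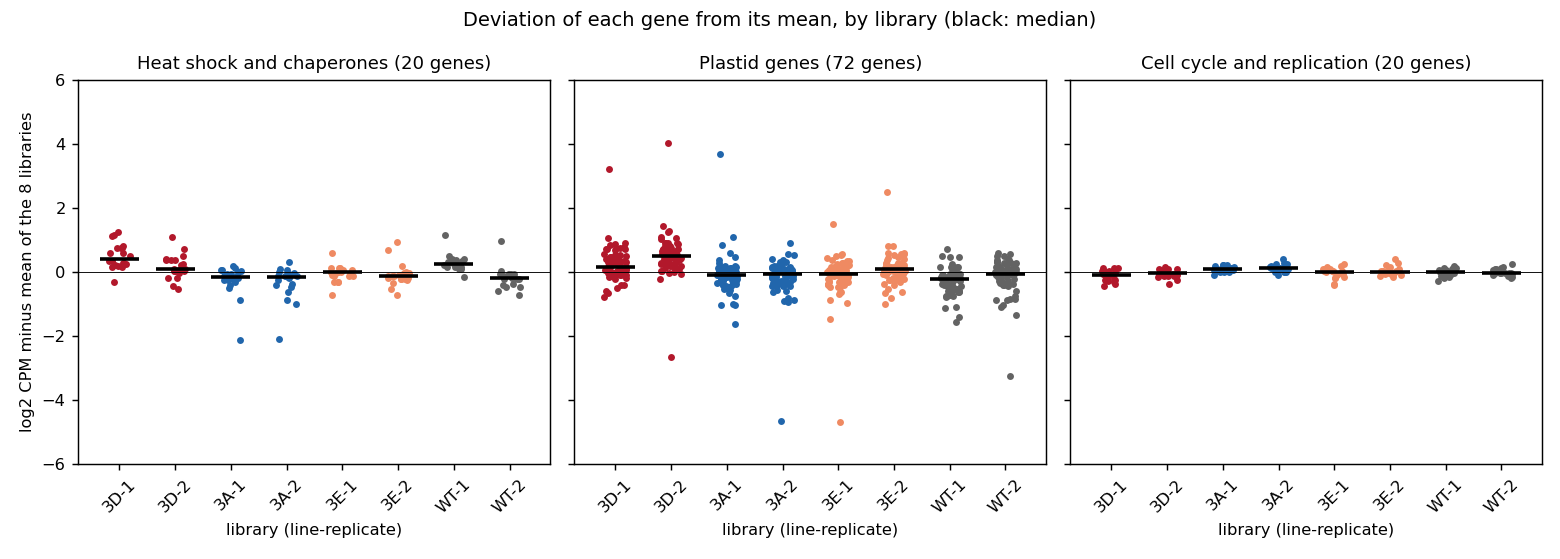
Deviation of each gene from its mean over the 8 libraries, in log2 CPM (y axis), by library (x axis, CERK1_3D, CERK1_3A, CERK1_3E and CERK1_WT from left to right) for 20 heat shock and chaperone genes, 72 plastid genes and 20 cell cycle genes; points are genes and black lines medians. Medians of both CERK1_3D libraries lie above those of both CERK1_3A libraries for heat shock and plastid genes and below them for cell cycle genes.

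Genes of the plastid genome were also mostly higher in CERK1_3D. Of 88 listed, 72 were tested, and 66 of these had a positive and 6 a negative log2 fold change, with a median of 0.43. None was called by edgeR, 16 reached an unadjusted p under 0.05, all higher, where 3.08% of all genes did, and DESeq2 called 6, where it called 0.235% of all genes higher. Both CERK1_3D libraries lay above both CERK1_3A libraries for 32 of 47 members with a mean of at least 1 CPM, and below them for 0, against 15.2% above and 16.7% below over all genes. ATCG00490 had 24.2 and 24.8 CPM in CERK1_3D, against 13.2 and 13.6 CPM in CERK1_3A (log2 fold change 0.87, SE 0.13, edgeR adjusted p = 0.256). ATCG00270 had 13.3 and 11 CPM in CERK1_3D, against 5.52 and 5.63 CPM in CERK1_3A (1.12, SE 0.16, adjusted p = 0.256), and ATCG00280 had 23.9 and 18.9 CPM in CERK1_3D, against 11.4 and 9.69 CPM in CERK1_3A (1.02, SE 0.16, adjusted p = 0.259). ATCG00340 had 20.8 and 20.0 CPM in CERK1_3D, against 12.2 and 11.6 CPM in CERK1_3A (0.78). In ATCG00490, ATCG00270, ATCG00280 and ATCG00340 the CERK1_3D libraries were above the 6 others. The share of all counts that fell on plastid genes was 0.191% and 0.323% in CERK1_3D, 0.152% and 0.124% in CERK1_3A, 0.0930% and 0.158% in CERK1_3E and 0.0928% and 0.117% in CERK1_WT. CERK1_3D replicate 2 was the highest library, and without it the median log2 fold change of the plastid genes was 0.25. Most of this share came from 1 gene, ATCG01100, at 1424 and 2871 CPM in CERK1_3D and 1171 and 954 CPM in CERK1_3A, and single plastid genes did not all follow it: ATCG00270 and ATCG00280 were lower in CERK1_3D replicate 2 than in replicate 1.

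Mitochondrial genome entries had a median log2 fold change of 0.47 over the 60 tested of 122, with 43 positive and 17 negative values, 7 unadjusted calls higher and 1 lower, against 3.08% and 2.7% of all genes, and 0 after adjustment. Their summed level was low, at 102 and 88.2 CPM in CERK1_3D and 77.5 and 85.2 CPM in CERK1_3A, and the range between libraries was wide for single genes. The median stayed between 0.45 and 0.56 when each of the 4 libraries was left out.

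Cell cycle and replication genes, which mark dividing cells, leaned the other way by small amounts. Of 20 tested, 19 had a negative log2 fold change and 1 a positive one, with a median of -0.18. None was called, 3 had an unadjusted p under 0.05, all lower, against 2.7% of all genes, and both CERK1_3D libraries were below both CERK1_3A libraries for 11 of 20 and above them for 1, against 16.7% below and 15.2% above over all genes. CYCB2;2, a B-type cyclin of mitosis, had 4.70 and 5.09 CPM in CERK1_3D, against 6.18 and 7.43 CPM in CERK1_3A (log2 fold change -0.48, SE 0.22). SYP111, the syntaxin of the dividing cell plate, had 29.2 and 32.8 CPM in CERK1_3D, against 38.9 and 37.3 CPM in CERK1_3A (-0.30, SE 0.09, edgeR adjusted p = 0.79). In both genes the lines did not overlap. The median of the list was -0.19 to -0.17 without each of the 4 libraries in turn. The median deviation of the 20 genes from their means over 8 libraries was -0.10 and -0.05 in CERK1_3D and 0.07 and 0.12 in CERK1_3A. It was 0.006 and 0.003 in CERK1_3E and -0.02 and -0.04 in CERK1_WT. The CERK1_3A libraries were thus the highest, and CERK1_3D replicate 2 lay close to CERK1_WT replicate 2.

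Nuclear photosynthesis genes had negative values for 19 of 21 members with a median of -0.14. The median rested on 1 library: without CERK1_3D replicate 1 it was 0.02, and without CERK1_3D replicate 2 it was -0.33. At an unadjusted p under 0.05, 3 members were lower and 0 higher, against 2.7% and 3.08% of all genes. None was called after adjustment. Both CERK1_3D libraries lay below both CERK1_3A libraries for 6 of 21 members and above them for 1. Over all genes the shares were 16.7% and 15.2%. The summed level of the list was 70315 and 93735 CPM in CERK1_3D and 91459 and 93941 CPM in CERK1_3A. RBCS3B, a small subunit of Rubisco, had 5362 and 6623 CPM in CERK1_3D, and 1106 and 3986 CPM in CERK1_3A. RBCS1A had 5677 and 6840 CPM in CERK1_3D, and 6052 and 11499 CPM in CERK1_3A. The small subunit genes are close in sequence, so the split of reads among them is uncertain.

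No gene of chitin or flagellin perception was called by edgeR. Of 13 genes of LysM receptors and chitin signalling, 7 had positive and 6 negative values with a median of 0.01, and 2 reached an unadjusted p under 0.05, CERK1 itself and LYK4, both higher, where 3.08% of all genes did. LYK5, the high-affinity chitin receptor that pairs with CERK1, had 8.69 and 6.69 CPM in CERK1_3D and 6.13 and 5.14 CPM in CERK1_3A (log2 fold change 0.45, SE 0.26). LYK4, its relative, had 7.54 and 7.13 CPM in CERK1_3D and 5.60 and 5.14 CPM in CERK1_3A (0.45, SE 0.19, edgeR adjusted p = 0.857). PBL27, the cytoplasmic kinase downstream of CERK1, had a log2 fold change of -0.08. Of 24 pattern receptor and signalling genes, 0 reached an unadjusted p under 0.05, and the median was 0.05. FLS2 had 1.91 and 1.68 CPM in CERK1_3D and 2.64 and 2.15 CPM in CERK1_3A (-0.42, SE 0.35). EFR, the receptor of the bacterial elongation factor Tu, had 4.29 and 4.43 CPM in CERK1_3D and 3.25 and 3.29 CPM in CERK1_3A (0.42, SE 0.27). The 5 chitinase and PR4 genes had a median of 0.01 and 0 calls after adjustment. At an unadjusted p under 0.05, 1 of them, PR4, was lower, where 2.7% of all genes were. PR4 had 138 and 120 CPM in CERK1_3D and 190 and 147 CPM in CERK1_3A (-0.38, SE 0.14).

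Immediate early immunity genes, which rise soon after pattern perception, had 21 of 27 values positive and a median of 0.20. They had 2 unadjusted calls higher, against 3.08% of all genes, and 0 calls after adjustment. The 2 were WRKY18, at 8.29 and 7.76 CPM in CERK1_3D and 6.10 and 5.30 CPM in CERK1_3A, and ERF6. ERF6 had 3.11 and 5.04 CPM in CERK1_3D and 2.30 and 1.68 CPM in CERK1_3A. In both genes the lines did not overlap. Of 23 members with a mean of at least 1 CPM, both CERK1_3D libraries lay above both CERK1_3A libraries for 4 and below for 1. Over all genes the shares were 15.2% and 16.7%. The largest differences of the list, in SZF1, WRKY40 and STZ, came mostly from 1 library of CERK1_3D. SZF1, a zinc finger gene, had 28.6 and 96.8 CPM in CERK1_3D and 23.0 and 32.9 CPM in CERK1_3A. STZ, a zinc finger repressor of stress responses, had 3.89 and 17.56 CPM in CERK1_3D and 4.75 and 5.22 CPM in CERK1_3A, and WRKY40 had 1.93 and 5.20 CPM in CERK1_3D and 1.64 and 1.60 CPM in CERK1_3A. In each of these genes CERK1_3D replicate 2 was high, and replicate 2 of CERK1_3E was as well, at 98.3, 19.6 and 4.99 CPM. In CERK1_WT replicate 2 was above replicate 1 for SZF1, at 52.4 against 23.4 CPM, and for STZ, at 8.17 against 3.19 CPM, but not for WRKY40. Without CERK1_3D replicate 2 the median of the list was 0.03.

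The salicylic acid and jasmonate lists had 0 calls after adjustment too. Of 24 salicylic acid genes 14 were positive with a median of 0.14, and 4 unadjusted calls were higher and 1 lower, against 3.08% and 2.7% of all genes. PBS3, an enzyme of salicylic acid synthesis, had 19.2 and 11.1 CPM in CERK1_3D and 7.63 and 6.79 CPM in CERK1_3A, without overlap (log2 fold change 1.07, SE 0.28). WRKY38, a transcription factor of the salicylic acid response, had 0.242 and 0.550 CPM in CERK1_3D and 2.51 and 1.02 CPM in CERK1_3A (-2.15, SE 0.62). DESeq2 called PBS3 (adjusted p = 0.0394) and did not call WRKY38. Of 23 jasmonate genes 20 were positive with a median of 0.21, and 2 unadjusted calls were higher, against 3.08% of all genes. VSP2, a vegetative storage protein and jasmonate marker, had 124 and 109 CPM in CERK1_3D and 86.6 and 60.5 CPM in CERK1_3A (0.67, SE 0.18, edgeR adjusted p = 0.763), without overlap. DESeq2 called VSP2 as well (adjusted p = 0.0378). JAZ5, a repressor of jasmonate signalling that the hormone induces, had 6.31 and 4.27 CPM in CERK1_3D and 3.72 and 1.41 CPM in CERK1_3A. Among members with a mean of at least 1 CPM, both CERK1_3D libraries lay above both CERK1_3A libraries for 8 of 22 jasmonate genes and below for 0. For 22 salicylic acid genes these counts were 9 and 5. Over all genes the shares were 15.2% above and 16.7% below. The median of the jasmonate list moved between -0.03 without CERK1_3A replicate 2, in which all 23 genes lay below their means, and 0.51 without CERK1_3A replicate 1.

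Among genes of ethylene perception and signalling, the receptor genes ETR1, ERS1 and ETR2, the kinase gene CTR1, and EIN2 and EIN3, which pass the signal to the nucleus, had log2 fold changes of 0.03, 0.06, 0.03, 0.00, -0.03 and -0.02. ACS6, an ACC synthase of the ethylene pathway, was measured at 24.0 and 71.3 CPM in CERK1_3D, and at 16.4 and 32.4 CPM in CERK1_3A. Its groups overlapped. The ethylene-responsive factor ERF1 lay at 0.215 and 0.0826 CPM in CERK1_3D and at 0.449 and 0.470 CPM in CERK1_3A, from 3 to 17 counts per library, and was not called (log2 fold change -1.60, edgeR adjusted p = 0.854).

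The remaining lists held 1 edgeR call, TWD1. Indolic and camalexin synthesis, aliphatic glucosinolate synthesis, phenylpropanoid and lignin genes, and the circadian clock had medians of -0.05, -0.03, 0.05 and 0.00, with no member at an unadjusted p under 0.05. Flavonoid and anthocyanin genes had a median of 0.13, and the MYB regulators of anthocyanin synthesis MYB90 and PAP1 stood highest: PAP1 had 6.87 and 3.14 CPM in CERK1_3D and 2.11 and 3.18 CPM in CERK1_3A. Only CERK1_3D replicate 1 was apart in PAP1. Of 14 flavonoid and anthocyanin genes 2 reached an unadjusted p under 0.05, both higher, against 3.08% of all genes. Abscisic acid, drought and cold genes had a median of 0.15, phosphate starvation genes 0.17, iron genes 0.10 and root markers 0.12. At an unadjusted p under 0.05, 3 of 18 abscisic acid genes were higher and 1 lower. Of 14 phosphate starvation genes 1 was lower, and 1 of 15 iron genes and 1 of 15 root markers were higher. Over all genes 3.08% were higher and 2.7% lower. For 6 of 16 abscisic acid genes at 1 CPM or more, both CERK1_3D libraries lay above both CERK1_3A libraries, and for 1 below. Over all genes the shares were 15.2% and 16.7%. These 4 lists had 0 calls after adjustment. Without CERK1_3D replicate 1 the median was negative for abscisic acid genes at -0.05, phosphate starvation genes at -0.30 and root markers at -0.22. The root median was also negative without CERK1_3A replicate 1, at -0.02. Among 20 auxin genes TWD1 was the 1 called, 12 values were negative and the median was -0.09. The transporters ABCB1 and ABCB19, with which TWD1 acts, had log2 fold changes of 0.04 and -0.08 and were not called.

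**Figure D5:**
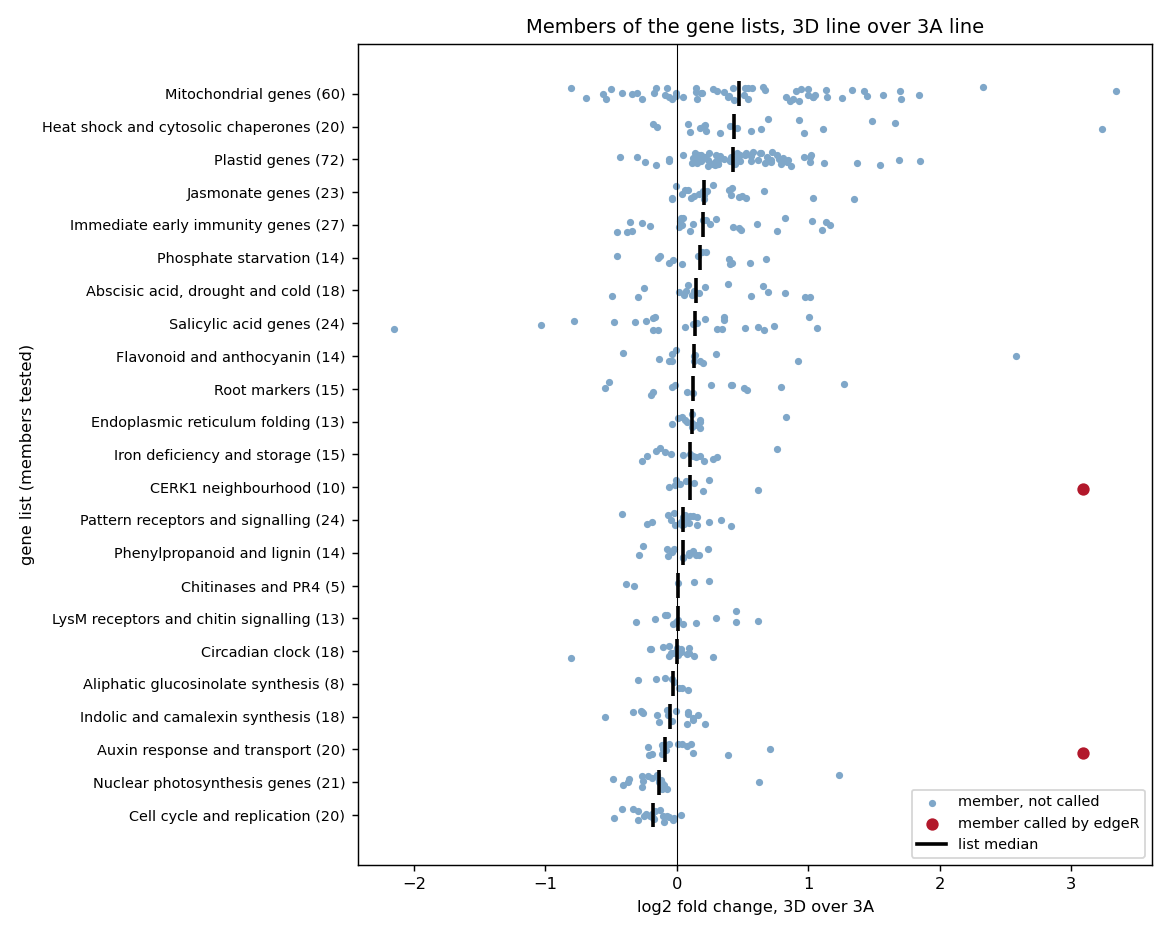
Log2 fold change of CERK1_3D over CERK1_3A (x axis) of each tested member of the gene lists (y axis, with the number tested in brackets), ordered by median and without the seed markers and ethylene genes; small points are members that were not called, red points members called by edgeR and black bars medians. TWD1, in the auxin and CERK1 neighbourhood lists, is the called member, and list medians lie between -0.18 and 0.47.

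Apart from the test, 25 genes had both CERK1_3D libraries at least 2-fold above both CERK1_3A libraries (0.131% of 19085 genes with a mean of at least 1 CPM), and 15 had them at least 2-fold below (0.0786%). The 4 genes called higher were among the 25. CRK18, a cysteine-rich receptor-like kinase gene, had 26.8 and 26.8 CPM in CERK1_3D, against 9.75 and 12.8 CPM in CERK1_3A. It was called by DESeq2 (adjusted p = 0.000584) and not by edgeR (0.622). CERK1_3E, at 19.7 and 30.8 CPM, and CERK1_WT, at 28.2 and 17.8 CPM, also lay above CERK1_3A. VPS9A, an activator of endosomal Rab GTPases, had 7.62 and 8.23 CPM in CERK1_3D, against 18.2 and 18.8 CPM in CERK1_3A. CERK1_3E, at 17.7 and 16.6 CPM, lay near CERK1_3A, and CERK1_WT stood between, at 8.51 and 16.0 CPM. CRK18 and VPS9A fell outside the naming rule and were chosen after their values were seen.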

How the data were processed

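The deposited values are raw, whole-number counts per gene for 8 libraries of 4 lines. The genome build was TAIR10, per the submitters' processing notes. Alignment, counting, strand use and filters are not given in the sources used here. The authors' stated gene length per entry was read for comparison only. Of 27612 entries, 26694 had an entry in the TAIR10.1 reference, used for names, neighbours and coding sequence identity (blastn 2.17.0), and 246 are named newGene.

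Groups came from sample titles. edgeR 4.0.16 in R 4.3.3 fitted all 8 libraries by line, without covariates, after TMM scaling and filterByExpr, which kept 21274 genes. CERK1_3D minus CERK1_3A was tested two-sided by the quasi-likelihood test, with Benjamini-Hochberg adjustment over all genes, a threshold of 0.05 and 4 residual degrees of freedom. The biological coefficient of variation was 0.170. DESeq2 1.42.0, other scalings and filters, a replicate block and left-out libraries were alternatives. On simulated counts of this comparison over 21274 genes the test recovered 76% of 50 genes changed 2-fold, 96% at 4-fold and 100% at 8-fold and 16-fold, with 9 false calls. The simulated spread followed the trend over expression level, without a spread of each gene's own, and 200 genes were changed. Recovery in the real data may therefore be lower. Library totals of 36013439 to 41288819 set the counting precision. The 95% exact binomial intervals take in counting error alone, because they rest on counts summed over the 2 libraries of a line. They leave out the spread between replicates. The labels mention no molecular identifiers to tell PCR copies apart, so the intervals make no allowance for such copies. No pair of replicates agreed within sampling noise. Genes were named if called, if among the smallest p until 25 were reached, if near CERK1, if named in other line comparisons, or if among the 3 largest differences of a list. The comparison, lists and rule were chosen with earlier results of these data known. Lists were described by counts and medians and not tested. The 1 gene called lower in CERK1_3D is not reported here. No sequence or coordinate is given, since the reference build differs from the stated one.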

Additional observations from a re-analysis of the deposited data

How the results depend on the processing

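The count of 4 genes higher and 1 lower in CERK1_3D was sensitive to the tool and the libraries. DESeq2 gave 50 higher and 27 lower and also called CERK1, at the same log2 fold change of 0.62. A replicate block, which pairs libraries by number, left 2 higher and 1 lower: AT1G58936 and AT2G01021 both had an edgeR adjusted p of 0.0569. The shared numbers were not taken as pairs, because the labels do not say that they pair. Gene-wise differences between replicates correlated across lines at -0.04 to 0.15. A correlation over all genes does not show whether some genes shared a shift by replicate number. ACS6, for example, was higher in replicate 2 than in replicate 1 in each line. With the 4 compared libraries alone, 3 genes were higher and 2 lower. The cause of these changes was not tested. Leaving out 1 library gave 1 to 6 genes higher and 1 to 10 lower, the 10 without CERK1_3D replicate 1. TWD1 had log2 fold changes of 2.84 to 3.31 over left-out libraries and was lost once, without CERK1_3A replicate 1 (3.13). ARP9 and AT2G01021 were lost when any single library of CERK1_3A or CERK1_WT was left out, and AT1G58936 when any of the 8 libraries was. With a minimum mean of 5 CPM AT1G58936 was not fitted.

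The following log2 fold changes of uncalled genes changed sign. ABCI12, near 0, was 0.0024 with size factors and with DESeq2 and 0.0051 with 4 libraries, and lay between -0.21 and 0.19 over left-out libraries. Over left-out libraries AT3G21600 lay between -0.36 and 0.26, AT3G21610 between -0.079 and 0.14, AT3G21620 between -0.20 and 0.11, AT3G21650 between -0.071 and 0.20, and AT3G21680 between -0.37 and 0.60. STZ lay between -0.36 and 1.82, JAZ7 between -0.18 and 4.23, ACS6 between -0.020 and 1.55, CYP71A13 between -0.89 and 0.60, CYP79F2 between -0.49 and 0.12, MYB28 between -0.20 and 0.019, CCR2 between -0.52 and 0.062, MYB11 between -1.31 and 0.15, and RBCS1A between -0.88 and 0.048. ELF4 lay between -0.87 and 0.91, PCL1 between -0.51 and 0.19, SPX3 between -0.74 and 1.38, MGDC between -0.16 and 1.23, PRP3 between -0.35 and 1.43, PLT2 between -1.76 and 0.10, EM1 between -4.89 and 5.65, and CRA1 between -1.26 and 1.42.

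List medians without single libraries were computed after the data had been seen. The medians lay between -0.10 and 0.22 for LysM genes, 0.034 and 0.33 for immediate early genes, -0.034 and 0.34 for salicylic acid genes, -0.031 and 0.51 for jasmonate genes, -0.058 and -0.0023 for ethylene genes, -0.25 and 0.11 for indolic genes, -0.065 and 0.018 for aliphatic glucosinolate genes, and -0.36 and 0.17 for chitinases. They lay between 0.26 and 0.60 for heat shock genes, -0.33 and 0.016 for photosynthesis genes, -0.12 and 0.024 for auxin genes, 0.062 and 0.19 for iron genes, -2.67 and 3.53 for seed markers, 0.25 and 0.54 for plastid genes, and 0.072 and 0.20 for the CERK1 neighbourhood. The median kept its sign in each of 4 leave-outs for heat shock, plastid, mitochondrial, cell cycle, endoplasmic reticulum, flavonoid, iron and immediate early genes. With 2 libraries a line, simulated 2-fold changes were recovered in 76% of cases, and smaller differences are often missed. The simulation gave genes no spread of their own, so larger differences can be missed too. HSC70-1, 9.45-fold higher by counts in CERK1_3D, was not called by edgeR over the 8 libraries.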

Other observations

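Several genes outside the naming rule differed widely between libraries, some of them also between replicates of a line. They were chosen after their values were seen, and none was called by edgeR. The unannotated locus newGene_71 was measured at 124 and 578 CPM in CERK1_3D, and at 0.634 CPM in 1 CERK1_3A library, and it was listed at 0 in the other. No library of CERK1_3E or CERK1_WT exceeded 2.62 CPM, so both CERK1_3D libraries stood above all others (edgeR adjusted p = 0.333). AT4G20980 had 93.4 and 97.0 CPM in CERK1_3D, 19.6 and 18.0 CPM in CERK1_3A, 100 and 17.7 CPM in CERK1_3E and 18.3 and 18.14 CPM in CERK1_WT. Its 8 values thus lay either between 17.7 and 19.6 or between 93.4 and 100 CPM, and the replicates of CERK1_3E were split between these levels. UBQ11, a polyubiquitin gene with close relatives, had 34.4 and 33.2 CPM in CERK1_3D, 156 and 139 CPM in CERK1_3A, 173 and 69.8 CPM in CERK1_3E and 193 and 59.8 CPM in CERK1_WT. AT2G45920 had 0.0268 and 0.0275 CPM in CERK1_3D and 16.1 and 0.608 CPM in CERK1_3A, and likewise differed between the replicates of CERK1_3E, at 13.4 and 0.0273 CPM. For AT4G20980 and UBQ11 the lines compared here did not overlap, and with only these 4 libraries in the fit both were called.

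The unannotated locus newGene_80 was low in both lines compared here. It had 47.0 and 76.5 CPM in CERK1_3D and 129 and 211 CPM in CERK1_3A, against 1037 and 1081 CPM in CERK1_3E and 475 and 388 CPM in CERK1_WT. Between CERK1_3D and CERK1_3A the log2 fold change was -1.46 (edgeR adjusted p = 0.484), and DESeq2 called it (adjusted p = 0.0213).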
